A study of Mus musculus with 6 samples.

Results

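The peroxiredoxins Prdx1, Prdx2, Prdx3, Prdx4, Prdx5 and Prdx6, together with the sulfiredoxin Srxn1, were followed in liver RNA of mice in which Prdx1 itself had been targeted. They are 7 of the 55401 genes in the deposited table and were found by symbol, each with a single row. The tested livers came from 3 male mice with floxed Prdx1 alleles and an albumin-driven Cre transgene (genotype label Prdx1(lox/lox);Alb-cre, called knockout here). The livers they were compared with came from 3 male mice with the floxed alleles and no Cre (genotype label Prdx1(lox/lox), called control). Every mouse entered the study at 8 weeks of age and ate the diet labelled MCD for 5 weeks, an abbreviation commonly used for a diet deficient in methionine and choline. There was no other diet among these samples, so a response to the diet itself cannot be seen. The albumin promoter is active in hepatocytes, but which liver cells had lost Prdx1, ductular cells included, was not measured here. An effect of Cre alone cannot be told apart from that of the deletion.

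Peroxiredoxins reduce hydrogen peroxide and organic peroxides with a reactive cysteine, the peroxidatic cysteine, which is oxidised in the reaction and must then be reduced again. Prdx1 to Prdx4 are typical 2-Cys enzymes that work as dimers and are recharged by thioredoxin. Prdx1 and Prdx2 act in the cytosol, Prdx3 in the mitochondrial matrix and Prdx4 in the endoplasmic reticulum (ER). Prdx5 is an atypical 2-Cys enzyme of mitochondria, peroxisomes and cytosol, and Prdx6 is a 1-Cys enzyme that also acts on phospholipids. When a typical 2-Cys enzyme is overoxidised by its own substrate, sulfiredoxin restores it. Srxn1 and Prdx1 are known targets of the transcription factor NRF2.

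The coding sequence around the peroxidatic cysteine is shown for Prdx1 and for the paralogs with the same or a similar motif. Translated, the motif reads VCPTE in Prdx1 to Prdx4 and VCTTE in Prdx6. The sequence shows how close the genes are to the deleted one. Each line gives 30 bases of the mouse coding sequence of GENCODE M21 (GRCm38), 5′ to 3′, with the cysteine codon in capitals.
Prdx1: tttacttttgtgTGTcccacggagatcatt
Prdx2: ttcacttttgttTGCcccacggagatcatc
Prdx3: ttcacatttgtgTGTcctacagaaattgtt
Prdx4: ttcacctttgtgTGTccaactgaaatcatc
Prdx6: tttaccccagtgTGCaccacagaacttggc
The cysteine is codon 52 in Prdx1, 51 in Prdx2, 109 in Prdx3, 127 in Prdx4 and 47 in Prdx6. Prdx2 shares 26 of the 30 bases with Prdx1, Prdx4 shares 24, Prdx3 shares 23 and Prdx6 shares 17. Over the whole aligned coding sequence, identity with Prdx1 was 71.2% for Prdx2, 69.3% for Prdx3 and 69.2% for Prdx4. The longest run of identical bases shared with Prdx1 was 17 bases, in Prdx4, which is far shorter than the 150-base reads. Other genes of the deposited table whose symbol starts with Prdx or Srxn carried few counts. Copies under other names were not searched for, so reads shared with them cannot be judged. Prdx2-ps1 had 6, 14 and 22 counts in the knockouts and 4, 50 and 8 in the controls. Prdx6b and Prdx1-ps had 18 and 4 counts in all, each in knockouts alone, and Prdx2-ps2 and Prdx6-ps2 were at 0 in all libraries.

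The promoters of Prdx1 and Srxn1 are shown because both are known NRF2 targets, and their windows alone among those given held the motifs below. Prdx1 is the floxed gene itself, and Prdx3, Prdx4 and Prdx6 fell as well. Each is the RefSeq window from 250 bases before to 50 after the gene's start in GRCm38, with matches to the core of the antioxidant response element (TGACNNNGC) or to the AP-1 site (TGANTCA), on either strand, in capitals. Prdx1 is the plus strand of chr4:116685349-116685648, and Srxn1 is the plus strand of chr2:152105274-152105573.
Prdx1: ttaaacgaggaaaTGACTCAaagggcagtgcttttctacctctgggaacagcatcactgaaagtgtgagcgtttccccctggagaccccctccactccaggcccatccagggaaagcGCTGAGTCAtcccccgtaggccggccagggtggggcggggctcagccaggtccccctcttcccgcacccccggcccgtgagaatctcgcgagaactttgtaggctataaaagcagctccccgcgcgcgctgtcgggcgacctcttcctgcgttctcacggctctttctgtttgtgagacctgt
Srxn1: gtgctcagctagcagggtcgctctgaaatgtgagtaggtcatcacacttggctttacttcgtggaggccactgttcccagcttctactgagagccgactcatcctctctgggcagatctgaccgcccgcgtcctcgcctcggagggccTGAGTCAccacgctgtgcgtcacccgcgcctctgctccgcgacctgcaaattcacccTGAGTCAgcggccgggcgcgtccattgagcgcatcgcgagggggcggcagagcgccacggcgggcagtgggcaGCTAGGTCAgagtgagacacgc
In Prdx1 the response element core spans 133 to 125 bases before the start, on the minus strand, and overlaps an AP-1 match at 131 to 125 bases before it. A second AP-1 match lies 237 to 231 bases before the start. In Srxn1 the AP-1 matches lie 102 to 96 and 45 to 39 bases before the start, and the response element core lies at bases 29 to 37 after it, again on the minus strand. Windows were given for 6 of the 7 genes, and those of Prdx2, Prdx3, Prdx4 and Prdx5 held neither motif. Of 32851 windows of the same length in the mouse genome, 12.4% held the response element core and 7.8% the AP-1 site. A match is a description of these letters and shows no binding.

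Depth and the state of the tissue were as follows. Library totals were 58790874 to 78291273 deposited counts in the knockouts and 63189210 to 67319086 in the controls, and 18931 genes, all 7 members among them, passed the filter on low counts. By edgeR's quasi-likelihood test at an adjusted p of 0.05, the knockouts were higher for 19.9% and lower for 18.0% of tested genes, and the 2 groups did not overlap in scaled level for 53.0%. Of 19 hepatocyte markers, 15 fell and 0 rose (median log2 fold change -0.71), and their summed level was 80961 to 101619 CPM, counts scaled to library sizes multiplied by trimmed-mean (TMM) factors, in the knockouts, against 136566 to 159306 CPM in the controls. All 11 ductular markers rose (1150 to 1340 CPM summed in the knockouts, against 64.9 to 80.9 CPM in the controls). All 15 macrophage markers rose (3695 to 3963 CPM in the knockouts, against 1519 to 1723 CPM in the controls). Of 12 stellate and fibroblast markers 11 rose (2479 to 2861 CPM in the knockouts, against 783 to 888 CPM in the controls). Of 10 endothelial markers 3 rose and 3 fell (712 to 813 CPM in the knockouts, against 735 to 767 CPM in the controls). Among lymphocytes, 5 of 9 T and NK cell markers rose (19.0 to 24.1 CPM in the knockouts, against 9.08 to 12.2 CPM in the controls), and 2 of 7 B and plasma cell markers rose while 1 fell (23.0 to 31.6 CPM in the knockouts, against 10.3 to 14.1 CPM in the controls). Of 5 tested neutrophil markers 3 rose (33.7 to 41.3 CPM in the knockouts, against 15.8 to 19.5 CPM in the controls), and of 5 tested erythroid markers 1 fell (118 to 177 CPM in the knockouts, against 174 to 183 CPM in the controls). The neutrophil markers Ly6g, Ngp and Mpo and the erythroid marker Slc4a1 were at 0 in all controls, and Ly6g also in all knockouts. With library sizes alone, where 34.1% of all tested genes were higher and 6.60% lower, 10 hepatocyte markers fell and 0 rose, all ductular, macrophage and stellate markers rose, and of the erythroid markers 2 rose and 1 fell. In whole liver RNA, fewer cells of a type and less RNA per cell cannot be told apart, and the part of these markers in the results below was not tested.

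Prdx1 (ENSMUSG00000028691, chromosome 4, positions 116685544-116700822 in GRCm38) was reduced but still measured in every knockout liver. Its deposited level was 26.9, 37.9 and 24.5 FPKM, which scales fragments to gene length and library, in the knockouts, against 172, 149 and 176 FPKM in the controls. The groups were far apart, and knockout 2 was the highest of its group while control 2 was the lowest of its own. On the scale of CPM with TMM factors, the knockout mean was 14.1% of the control mean, with knockouts at 78.7, 111 and 75.4 CPM and controls at 644, 570 and 663 CPM. This is a log2 fold change of -2.82 ± 0.17 (SE), with a 95% interval of -3.21 to -2.44 and an adjusted p of 4.4e-05 in edgeR. It was lower than that of all but 0.618% of tested genes. By exact permutation of the libraries, two-sided, p was 0.1, and 3 against 3 allows none smaller.

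The remaining Prdx1 signal varied more between knockouts than between controls, with a coefficient of variation of 22.2% in the knockouts and 7.90% in the controls. Knockout 2, with the most Prdx1, had the highest ductular marker sum (1340 CPM, against 1150 and 1292 CPM in knockouts 1 and 3) and the highest stellate sum (2861 CPM, against 2744 and 2479 CPM). Its endothelial sum (813 CPM) and its T and NK cell sum (24.1 CPM) were also the highest of the knockouts. It had the lowest macrophage sum of the knockouts (3695 CPM, against 3963 and 3735 CPM), and the lowest neutrophil and erythroid sums. Its hepatocyte sum (81418 CPM, against 80961 and 101619 CPM) and its B and plasma cell sum lay between those of knockouts 1 and 3. The part of these cells in the remaining signal was not tested. Which exons the loxP sites flank is not given in the sources used here, and the gene-level values do not separate reads from deleted and kept exons.

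**Figure D1:**
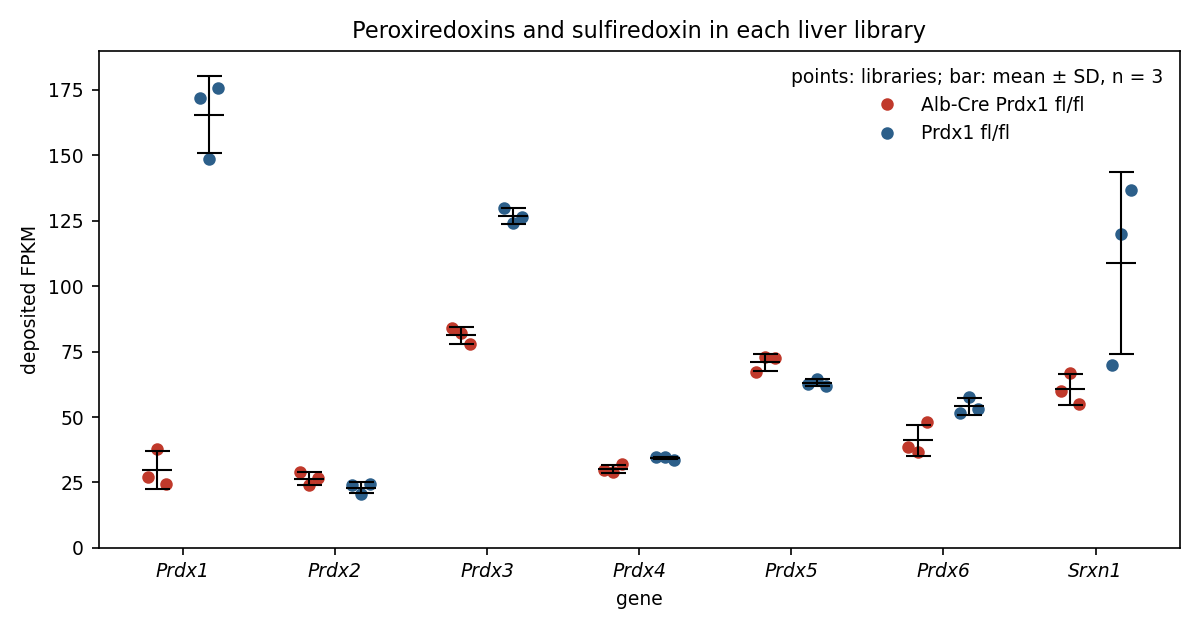
Deposited FPKM (y axis) of the 7 genes (x axis) in 3 Alb-Cre Prdx1 fl/fl livers (red, left of each pair) and 3 Prdx1 fl/fl livers (blue, right), with the mean and SD as black bars. Prdx1 lies between 24.5 and 37.9 FPKM in knockouts and between 149 and 176 FPKM in controls. Srxn1 spreads from 69.9 to 137 FPKM within the controls. Only the Prdx2 groups overlap, but separate groups were common. In TMM-scaled CPM they did not overlap for 53.0% of all tested genes, and the share in FPKM was not computed.

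The order of the family differed between the groups. Levels of different genes are compared here in FPKM, which is per length. In the knockouts Prdx3 came first at 81.3 ± 3.22 FPKM, followed by Prdx5 at 70.9 ± 3.33, Srxn1 at 60.6 ± 5.99, Prdx6 at 41.1 ± 6.01, Prdx4 at 30.2 ± 1.55, Prdx1 at 29.8 ± 7.16 and Prdx2 at 26.4 ± 2.56 FPKM (SD, n = 3). In the controls the order was Prdx1 at 166 ± 14.8, Prdx3 at 127 ± 2.94, Srxn1 at 109 ± 34.8, Prdx5 at 63.1 ± 1.39, Prdx6 at 54.1 ± 3.18, Prdx4 at 34.3 ± 0.473 and Prdx2 at 23.0 ± 2.24 FPKM (SD, n = 3). Prdx1 was the most abundant member in the controls and stood among the lowest in the knockouts. Within the knockouts, Prdx1 overlapped both its neighbours, Prdx4 and Prdx2, and within the controls Srxn1 overlapped Prdx3, while all other neighbours were separated in every library. In knockout 2, Prdx1 (37.9 FPKM) also lay above Prdx6 (36.8 FPKM).

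No paralog was called higher in the main comparison. Of the 7 genes, 5 fell (Prdx1, Prdx3, Prdx4, Prdx6 and Srxn1), 0 rose and 2 did not pass (Prdx2 and Prdx5), beside 18.0% of all tested genes called lower. Scaling shifts every value: over all tested genes, the median log2 fold change was 0.05 on the TMM scale, 0.41 when only library sizes were used and 0.27 in FPKM. On TPM made by rescaling the FPKM of each library to 1 total, an alternative added after seeing the data, Prdx2 and Prdx5 were called higher, by 0.32 and 0.29 on the log2 scale (adjusted p = 0.0462 and 0.0158 in limma), where the median of all genes was 0.43. Relative to the median of the same setting, Prdx1, Prdx3, Prdx4, Prdx6 and Srxn1 were below it under all 13 settings that used all libraries. Prdx2 and Prdx5 were also below it in the main setting (by -0.19 and -0.23 on the log2 scale) and with library sizes alone (-0.20 and -0.23). They were above it only in limma on FPKM without a filter, by 0.07 and 0.04.

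Prdx2, the other cytosolic enzyme and a major protein of red cells, was not called in the main comparison. It stood at 29.0, 23.8 and 26.5 FPKM in the knockouts, against 24.1, 20.4 and 24.5 FPKM in the controls, and the groups overlapped. The log2 fold change was -0.15 ± 0.11 (SE; 95% interval -0.40 to 0.11, adjusted p = 0.334 in edgeR) with TMM factors, and 0.22 (-0.04 to 0.48, adjusted p = 0.157) with library sizes alone, so its direction depended on the scaling. Of the 5 tested erythroid markers, 0 rose and 1 fell with TMM factors, and 2 rose and 1 fell with library sizes alone. Dropping the TMM factors shifted all genes upward by a similar amount, so a move shared with Prdx2 carries no information on red cells. The part of red cells in the value of Prdx2 was not tested. Prdx2 (chromosome 8, positions 84969587-84974834, plus strand) overlaps Junb at its 3′ end and Rnaseh2a at its 5′ end, both on the other strand. Junb, an AP-1 subunit chosen after its values were seen, rose to 76.5, 89.6 and 90.1 CPM in the knockouts, against 39.2, 61.7 and 52.6 CPM in the controls (log2 fold change 0.74 ± 0.17, adjusted p = 0.0101). The library kit marked the strand, but whether counting used it is not given in the sources used here, so the overlap limits the value of Prdx2.

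Prdx3, the mitochondrial enzyme, fell to 50.3% of its control mean in CPM, with the smallest relative spread of the 7 genes on that scale (coefficient of variation 1.51% in the knockouts and 1.21% in the controls). It stood at 84.1, 82.0 and 77.7 FPKM in the knockouts, against 130, 124 and 127 FPKM in the controls, with no overlap. On the TMM scale, its log2 fold change was -0.99 ± 0.07 (SE; 95% interval -1.16 to -0.83, adjusted p = 8.2e-05 in edgeR). The fall was called under all 13 settings, with log2 fold changes from -1.0 to -0.52. Prdx3 lies on chromosome 19 (positions 60864051-60874556, minus strand).

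Of the mitochondrial genes around Prdx3, 3 are given here. Txn2, the thioredoxin that recharges Prdx3, was at 71.4, 59.7 and 59.9 CPM in the knockouts, against 111, 117 and 111 CPM in the controls (log2 fold change -0.83 ± 0.10, adjusted p = 0.000651 in edgeR). Sod2, the mitochondrial superoxide dismutase that makes hydrogen peroxide, was at 87.8 ± 5.73 CPM in the knockouts and 143 ± 5.15 CPM in the controls (SD, n = 3 each), a log2 fold change of -0.70 (adjusted p = 0.000681). Txnrd2, which reduces Txn2, had a log2 fold change of -0.41 (adjusted p = 0.0178), and this call was lost without knockout 2 (0.0632), knockout 3 (0.0672) or control 1 (0.0607), and with library sizes alone (0.821). Sod2 and Txnrd2 were chosen after their values were seen, and no statement on mitochondrial genes as a group rests on them.

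Prdx4, the ER enzyme, fell less. It stood at 29.8, 28.9 and 31.9 FPKM in the knockouts, against 34.5, 34.6 and 33.7 FPKM in the controls, and the groups did not overlap. The log2 fold change was -0.53 ± 0.09 (SE; 95% interval -0.73 to -0.32, adjusted p = 0.00291 in edgeR) with TMM factors and -0.16 (adjusted p = 0.158) with library sizes alone. It was called under 7 of the 13 settings. Prdx4 lies on the X chromosome (positions 155323918-155340754, minus strand).

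Prdx4 passes oxidising equivalents to protein disulfide isomerases, and with TMM factors most genes of that system fell. Of 13 tested ER oxidative folding genes, 9 fell, 1 rose and 3 did not pass, beside 18.0% lower and 19.9% higher over all tested genes, with a median log2 fold change of -0.71 beside 0.05 for all tested genes. With library sizes alone 6 fell and 2 rose, beside 6.60% lower and 34.1% higher over all tested genes. P4hb, the main disulfide isomerase, was at 1383 ± 62.4 CPM in the knockouts and 2710 ± 136 CPM in the controls, a log2 fold change of -0.97. Txndc5, another isomerase family member, had a log2 fold change of -0.94. Ero1lb, an ER oxidase that makes hydrogen peroxide, was at 47.1 ± 12.0 CPM in the knockouts and 132 ± 18.1 CPM in the controls (SD, n = 3 each), a log2 fold change of -1.49. Gpx8, an ER peroxidase, was the list's one rise, by 1.55 on the log2 scale, to 4.85 ± 0.761 CPM in the knockouts, against 1.66 ± 0.154 CPM in the controls. Ero1lb is also in the list of peroxide-producing enzymes below and Gpx8 in that of peroxide-removing enzymes. Adjusted p-values of these 4 genes ran from 0.000165 to 0.00158 in edgeR.

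Prdx5, the atypical 2-Cys enzyme, was not called in the main comparison either. It stood at 67.1, 73.1 and 72.6 FPKM in the knockouts, against 62.7, 64.7 and 62.0 FPKM in the controls, with every knockout above every control. In TMM-scaled CPM every knockout was instead below every control, at 138, 150 and 157 CPM in the knockouts, against 165, 174 and 164 CPM in the controls. Neither difference passed the test: the log2 fold change was -0.18 (95% interval -0.37 to 0.01, adjusted p = 0.131 in edgeR) with TMM factors and 0.17 (-0.01 to 0.34, adjusted p = 0.10 in limma) in the FPKM. Prdx5 (chromosome 19, positions 6906697-6909978, minus strand) overlaps Trmt112, which lies on the other strand.

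Prdx6, the 1-Cys enzyme, fell with an uneven spread. It stood at 38.4, 36.8 and 47.9 FPKM in the knockouts, against 51.6, 57.7 and 53.1 FPKM in the controls. The groups did not overlap, and knockout 3 came closest to the controls. The log2 fold change was -0.74 ± 0.13 (SE; 95% interval -1.05 to -0.43, adjusted p = 0.0038 in edgeR) and was called under 12 of the 13 settings. Gstp1, the glutathione transferase that recharges Prdx6, was at 565 ± 28.8 CPM in the knockouts and 853 ± 179 CPM in the controls (SD, n = 3 each; log2 fold change -0.60, adjusted p = 0.0176). The Gstp1 call was lost with library sizes alone (0.269) and without knockout 1 (0.0555), knockout 2 (0.0661), control 1 (0.0601) or control 3 (0.0513), and Gstp2 is a near-identical neighbour with which it may share reads. Prdx6 lies on chromosome 1 (positions 161240112-161251219, minus strand).

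Srxn1, the repair enzyme, fell and was the most variable member in the controls. It stood at 59.9, 66.9 and 55.0 FPKM in the knockouts, against 69.9, 120 and 137 FPKM in the controls. The groups did not overlap, but control 1 lay just above the knockouts and well below the other controls. The log2 fold change was -1.20 ± 0.23 (SE; 95% interval -1.73 to -0.66, adjusted p = 0.00517 in edgeR), and it was -1.44 without control 1. It was called under 11 of the 13 settings. Set against its substrates, Srxn1 amounted to 35.3, 38.8 and 34.2 FPKM per 100 FPKM of Prdx1 to Prdx4 in the knockouts, against 19.4, 36.6 and 38.0 in the controls. These groups overlapped, with control 1 far below all other libraries. Srxn1 lies on chromosome 2 (positions 152105516-152109322, plus strand).

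**Figure D2:**
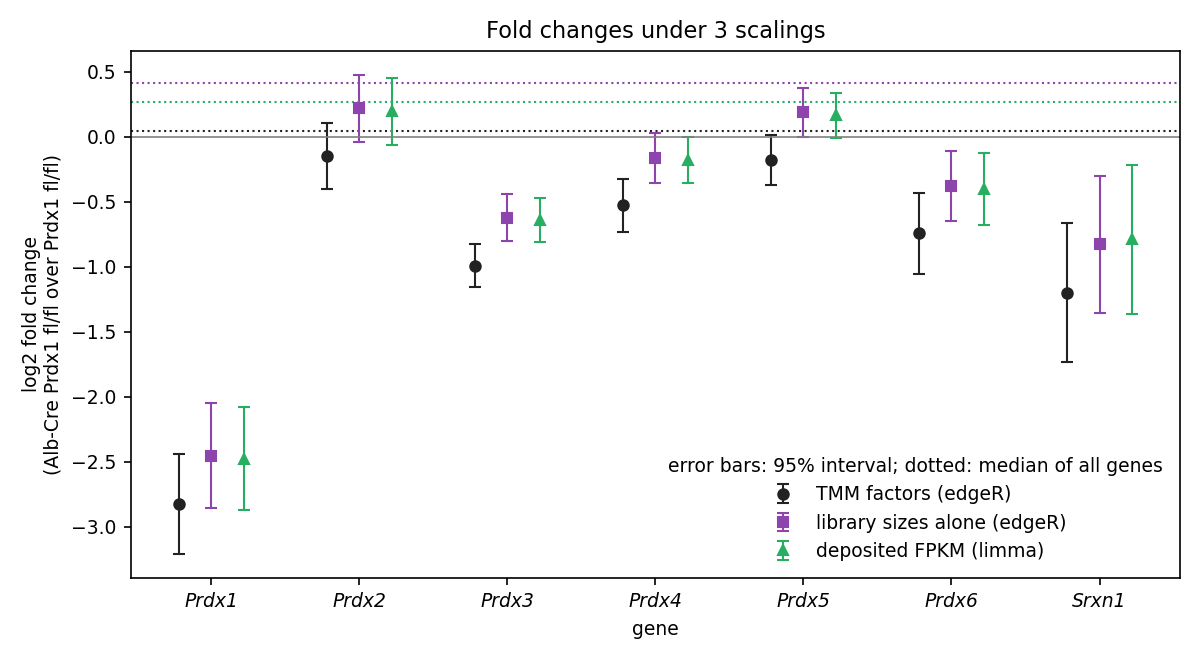
Log2 fold change of knockouts over controls (y axis) for the 7 genes (x axis) with TMM factors, library sizes alone and deposited FPKM, with 95% intervals, and the median of all genes under each scaling as a dotted line. Prdx1, Prdx3, Prdx4, Prdx6 and Srxn1 lie below 0 under all 3 scalings, while Prdx2 and Prdx5 lie at -0.15 and -0.18 with TMM factors and at 0.22 and 0.19 with library sizes alone.

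The pool of peroxiredoxin transcripts was smaller in the knockouts, and Prdx1 made up most of the gap. Summed over Prdx1 to Prdx6, it came to 275, 283 and 281 FPKM in the knockouts, against 475, 450 and 476 FPKM in the controls, so that the knockout mean was 59.9% of the control mean. Without Prdx1, the sum was 248, 245 and 257 FPKM in the knockouts, against 303, 301 and 300 FPKM in the controls, or 82.9%. The groups did not overlap in either sum. As a description with no test, Prdx1 accounted for 72.5% of the net difference between group means and Prdx3 for 24.3%. Prdx2 and Prdx5 had FPKM means 3.42 and 7.79 higher in the knockouts, differences that did not pass the test. In TMM-scaled CPM their means were lower, at 78.8 CPM for Prdx2 and 148 CPM for Prdx5 in the knockouts, against 87.3 and 168 CPM in the controls.

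The makeup of the pool differed as well. Prdx1 supplied 9.78%, 13.4% and 8.72% of the summed FPKM in the knockouts, against 36.2%, 33.0% and 37.0% in the controls. Prdx3 supplied 29.1% ± 1.45 in the knockouts and 27.2% ± 0.513 in the controls, so its share stayed near its control value while its level fell. Prdx5 supplied 25.3% ± 0.850 in the knockouts and 13.5% ± 0.730 in the controls, and Prdx2 supplied 9.46% ± 1.04 in the knockouts and 4.92% ± 0.331 in the controls (SD, n = 3 each). A share within the pool rises when another member falls, and these shares do not show a rise of the transcript itself.

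**Figure D3:**
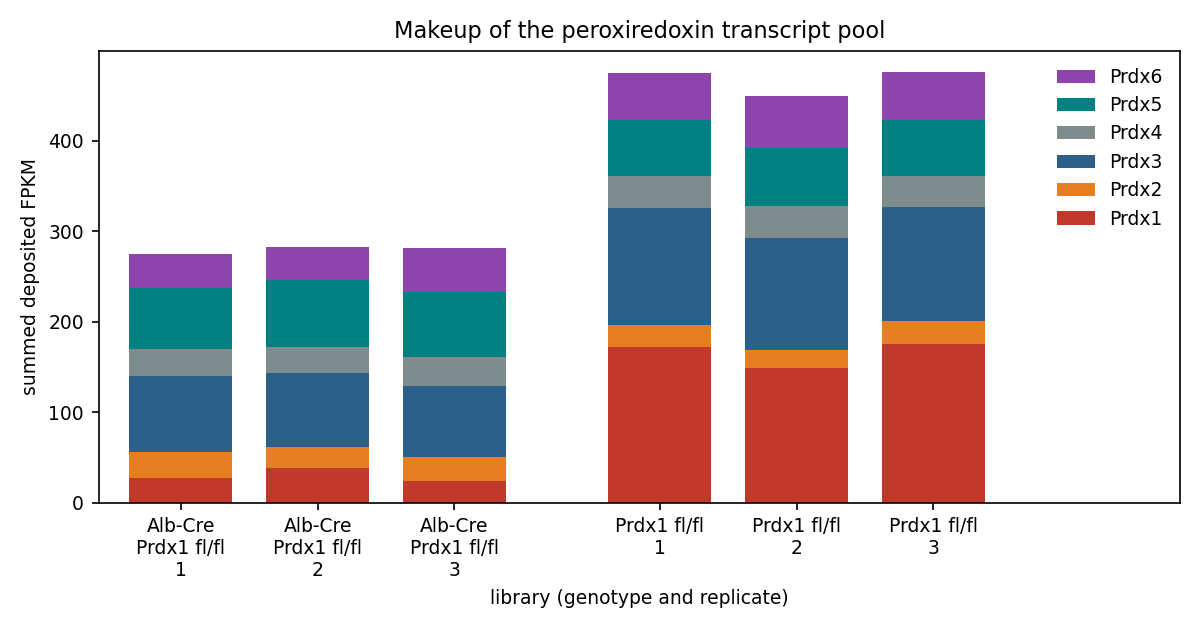
Stacked deposited FPKM of Prdx1 to Prdx6 (y axis) in each library (x axis), knockouts left and controls right. The knockout stacks reach 275 to 283 FPKM and the control stacks 450 to 476 FPKM, with Prdx1, the bottom segment, the part that differs most.

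Genes of the recharging system were called in both directions. Of 15 genes of thioredoxin recycling and direct reductants, 5 fell, 2 rose and 8 did not pass, beside 18.0% lower and 19.9% higher over all tested genes, with a median log2 fold change of -0.29. Using library sizes alone, 1 fell and 3 rose, beside 6.60% lower and 34.1% higher over all tested genes. Txn1, the cytosolic thioredoxin, was at 164 ± 13.6 CPM in the knockouts and 224 ± 16.1 CPM in the controls (SD, n = 3 each; log2 fold change -0.45, adjusted p = 0.00844 in edgeR), a call lost with library sizes alone (0.519). Glrx, a glutaredoxin chosen after its values were seen, had a log2 fold change of -0.60 (adjusted p = 0.0242), lost with library sizes alone (0.325) and without any one knockout (0.0661 to 0.0755). The genes that rose were Sesn1 and Txnip. Sesn1, a sestrin, was at 31.6 ± 2.99 CPM in the knockouts and 14.7 ± 3.05 CPM in the controls (log2 fold change 1.10, adjusted p = 0.00177). Txnip, the thioredoxin-binding inhibitor, was at 234, 256 and 209 CPM in the knockouts, against 66.5, 70.4 and 175 CPM in the controls (log2 fold change 1.17, adjusted p = 0.0346). Control 3 lay near the knockouts for Txnip. Its call was lost without any library except control 3, with adjusted p from 0.0581 to 0.10, and the log2 fold change without control 3 was 1.77.

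Other peroxide-removing enzymes were also called in both directions. Of 7 tested, 3 fell, 2 rose and 2 did not pass, beside 18.0% lower and 19.9% higher over all tested genes, with a median log2 fold change of 0.29. By library sizes alone, 1 fell and 4 rose, beside 6.60% and 34.1%. Cat, the peroxisomal catalase, was at 1023 ± 75.4 CPM in the knockouts and 1904 ± 217 CPM in the controls (SD, n = 3 each; log2 fold change -0.90, adjusted p = 0.000705 in edgeR). Gpx1 and Gpx4, glutathione peroxidases of hepatocytes and other cells, had log2 fold changes of -0.72 and -0.56 (adjusted p = 0.00687 and 0.00722), both lost with library sizes alone (0.0662 and 0.218). Gpx4 was chosen after its values were seen. Gpx3, the secreted plasma glutathione peroxidase, was at 138, 163 and 63.3 CPM in the knockouts, against 17.6, 18.3 and 19.5 CPM in the controls (log2 fold change 2.72, adjusted p = 0.000644). Every knockout was above every control, with knockout 3 the lowest of its group. Gpx8 also rose, as given above.

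Most enzymes that make hydrogen peroxide fell with TMM factors. Of 13 tested, 10 fell, 2 rose and 1 did not pass, beside 18.0% lower and 19.9% higher over all tested genes, with a median log2 fold change of -0.68 beside 0.05 for all tested genes. With library sizes alone 6 fell and 2 rose, beside 6.60% and 34.1%. Hao1, the hepatocyte glycolate oxidase, was at 51.0 ± 6.94 CPM in the knockouts and 131 ± 15.6 CPM in the controls, and Maob, a monoamine oxidase of the outer mitochondrial membrane, was at 85.0 ± 7.66 CPM in the knockouts and 177 ± 4.35 CPM in the controls (SD, n = 3 each). Their log2 fold changes were -1.36 and -1.06. The members that rose were Cybb, the phagocyte oxidase subunit, by 1.09, and Sod3, the extracellular superoxide dismutase, by 0.70. The Cybb value stood beside the rise of all 15 macrophage markers, and the part of these cells in it was not tested. All 4 genes had an adjusted p under 0.05 under every setting tried.

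Of 25 other genes of the NRF2 pathway, 6 fell, 2 rose and 17 did not pass, with a median log2 fold change of -0.16. Using library sizes alone, 2 fell and 7 rose. Over all tested genes 18.0% were lower and 19.9% higher with TMM factors, and 6.60% lower and 34.1% higher with library sizes alone, so no direction of the pathway is read from its counts. Me1, a source of NADPH, was at 106 ± 15.9 CPM in the knockouts and 327 ± 67.9 CPM in the controls (SD, n = 3 each; log2 fold change -1.62, adjusted p = 0.000412 in edgeR). Gclc, the catalytic subunit of glutathione synthesis, had a log2 fold change of -0.80 (adjusted p = 0.00934) and Tkt, a pentose phosphate enzyme, one of -0.43 (0.00556), both lost with library sizes alone (0.0944 and 0.582). G6pdx, the entry enzyme of the pentose phosphate pathway, was at 33.7 ± 1.16 CPM in the knockouts and 19.2 ± 0.754 CPM in the controls (log2 fold change 0.81, adjusted p = 0.000553). Osgin1, a stress-induced gene chosen after its values were seen, was at 56.4, 102 and 52.9 CPM in the knockouts, against 151, 419 and 194 CPM in the controls (log2 fold change -1.85, adjusted p = 0.0103). Abcc3, an export pump, had a log2 fold change of 0.52 (adjusted p = 0.0420), which passed only without control 3 when single libraries were left out and otherwise had adjusted p from 0.0512 to 0.114. Nfe2l2, the gene of NRF2 itself and chosen after its values were seen, had a log2 fold change of 0.23 (adjusted p = 0.0723) with TMM factors and 0.59 (0.00134) with library sizes alone.

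**Figure D4:**
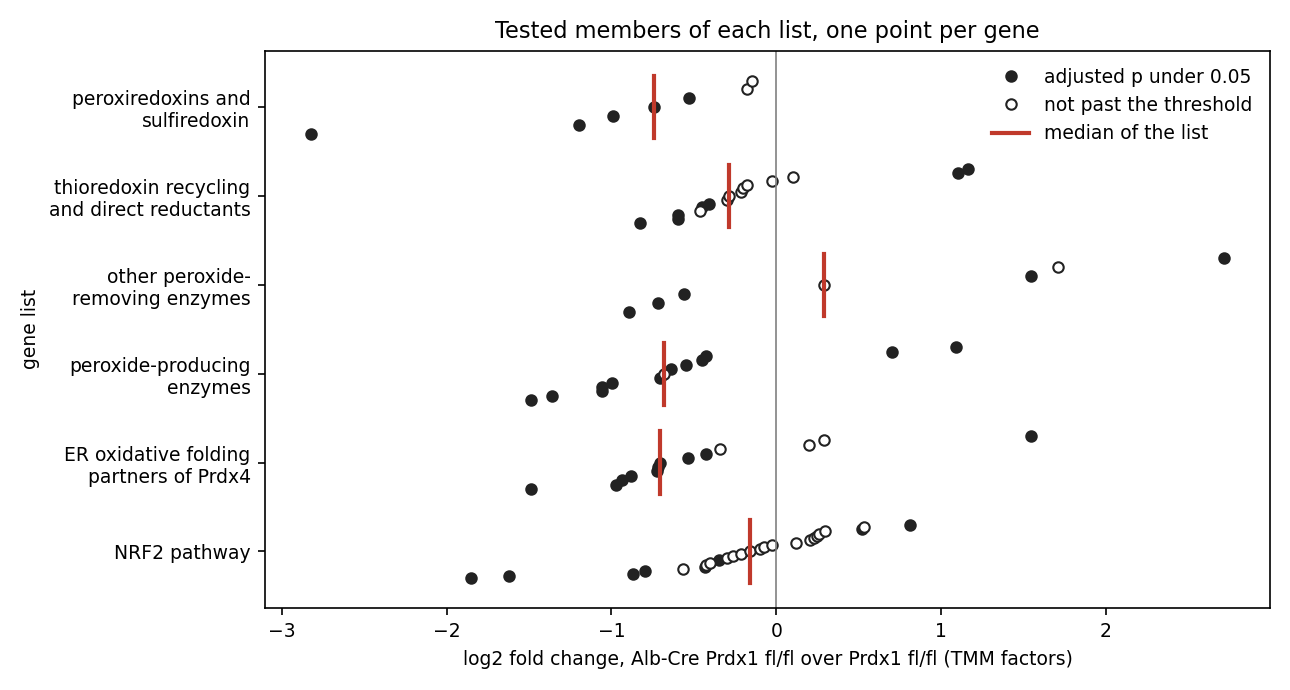
Log2 fold change of knockouts over controls with TMM factors (x axis) of each tested gene in the family and in 5 related lists (y axis), filled where the adjusted p was under 0.05, with list medians in red. The family lies left of 0. List medians are -0.71 for ER folding, -0.68 for peroxide-producing enzymes, -0.29 for thioredoxin recycling, -0.16 for the NRF2 pathway and 0.29 for peroxide-removing enzymes. Among filled points, the peroxide-removing list has Cat, Gpx1 and Gpx4 on the left and Gpx3 and Gpx8 on the right.

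The genes whose log2 CPM followed each called member most closely over the 6 libraries are given as a description. For Prdx1 they were Mup20, a urinary pheromone carrier, Nckap1 and Idh3b, with Pearson r of 0.998 or more. For Prdx3 they were Mrgpra2b, Pccb and mt-Atp6, with r of 0.999, of which Mrgpra2b was barely measured, at 0 CPM in the knockouts and 0.202 CPM on average in the controls. For Prdx4 they were Etnk1, D2hgdh and Phb2, with r of 0.998 or more, and for Prdx6 they included Nnmt and Apoh, with r of 0.997. For Srxn1 they were Angel1, Pxk and Ppip5k2, with r of 0.990 or more. Such values were common, since the libraries fall into 2 genotypes: 1175 of 14906 genes had r above 0.95 with Prdx1, and 144 had it with Srxn1. Among the members, r with Prdx1 was 0.990 for Prdx3, 0.935 for Prdx4, 0.882 for Prdx6, 0.880 for Srxn1, 0.813 for Prdx5 and 0.495 for Prdx2.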

How the data were processed

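Liver RNA of 3 Alb-Cre Prdx1 fl/fl and 3 Prdx1 fl/fl mice was sequenced. The submitters' processing notes name UMI-tools, DESeq2 and edgeR, beside StringTie 1.3.4d, HISAT2 2.0.4 and cutadapt 1.9, without their roles, and mm9 as the build. Positions are given in GRCm38, since 94.16% of the deposited identifiers found in GENCODE M21 had the same position there. So did 5 of the 7 members. The higher coordinate differed for Prdx5, whose start it is on the minus strand, and for Srxn1, whose end it is. Per the file headers, columns named AlbCRE and wt hold the libraries. The column name wt was taken as the genotype without Cre, the only other one.

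The deposited counts were whole numbers and are handled as estimated counts, since 4 and its multiples were overrepresented among low values (in knockout 1, 840 genes had a count of 4 and 320 a count of 3). No counting intervals are given because the counts are handled as estimates. The deposited FPKM were made by the authors and are 0.0001 where the count was 0.

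Counts were tested with edgeR 4.0.16 in R 4.3.3 (TMM factors, filterByExpr with a minimum count of 10 and total of 15, genotype as the only term, quasi-likelihood test, Benjamini-Hochberg adjustment over all 18931 tested genes, threshold 0.05). The plan named raw counts, and the counts proved to be estimated. Standard errors came from the F statistic. FPKM were tested with limma 3.58.1 on log2(FPKM + 0.5), where genes reached 0.5 FPKM in 3 libraries. The scripts were tested on simulated data. Alternatives were DESeq2 1.42.0, other scalings, filters, pseudocounts, counts divided by 4, a replicate block and leaving out each library. A test on TPM was added after seeing the data. The 13 settings named in the text are those that used all libraries, the main one included.

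The members and the lists were chosen with earlier results of these data known. From each list, up to 4 genes with the smallest p and those that moved against most of the list were named. Lists hold 15, 7, 14, 13 and 25 genes. Nothing says whether the 3 mice of a group shared a litter, so p-values measure the spread among these libraries. Coding and promoter sequences came from GENCODE M21 and RefSeq (GRCm38), and alignments used Biopython 1.88. Protein sequences were not used here. Some genes that the rules would name are not reported here.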

Additional observations from a re-analysis of the deposited data

How the results depend on the processing

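With library sizes alone, the counts of higher and lower genes were 6459 and 1249, against 3767 and 3415 with TMM factors, and Prdx2 stood at 0.22 and Prdx5 at 0.19 on the log2 scale, opposite in sign to the main values, and Prdx4 at -0.16 was not called. With limma on log2(FPKM + 0.5), which changes the measure, the filter and the test together, 5669 genes were higher and 1321 lower, Prdx2 stood at 0.20, Prdx5 at 0.17 and Prdx4 at -0.18 without a call. A pseudocount of 1 gave 5682 higher, 1327 lower, 0.19, 0.16 and -0.18, and one of 0.1 gave 1311 lower, 0.20, 0.17 and -0.18. Without a filter on FPKM, 5978 were higher and 1149 lower, the same 3 genes stood at 0.20, 0.17 and -0.18, and Srxn1 at -0.79 was not called (adjusted p = 0.0732 in limma). On TPM, 7718 were higher and 964 lower, Prdx2 stood at 0.32 and Prdx5 at 0.29 with adjusted p of 0.0462 and 0.0158 in limma, Prdx4 at -0.062, Prdx6 at -0.29 and Srxn1 at -0.67 were not called, and Txn1, Tkt and Txnrd2 turned to 0.020, 0.035 and 0.057. The cause of these moves was not tested.

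Prdx1 left in the knockouts was 18.0% of the control mean in FPKM and 18.3% with library sizes alone. The knockout sum of Prdx1 to Prdx6 was 65.1% of the control sum in TPM and 47.1% in TMM-scaled CPM per kilobase of exon, and that of Prdx2 to Prdx6 was 90.1% and 65.2%. Leaving out single libraries gave 12.3% to 15.1% for Prdx1 left, 58.8% to 60.5% and 81.8% to 83.8% for the sums, 2892 to 3645 genes higher and 2641 to 3104 lower. It changed no call of the 7 members: log2 fold changes ranged from -3.02 to -2.71 for Prdx1, -1.0 to -0.98 for Prdx3, -0.59 to -0.49 for Prdx4, -0.89 to -0.66 for Prdx6, -1.44 to -1.01 for Srxn1, -0.22 to -0.07 for Prdx2 and -0.21 to -0.12 for Prdx5. DESeq2, RLE and upper-quartile factors, no count filter and counts divided by 4 changed no call of a member.

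With a replicate block, 3269 genes were higher and 3207 lower and no call of a member changed, with Prdx1 at -2.84. Deviations of libraries with the same number correlated at 0.016, 0.031 and 0.035, each the highest for its library but too low to pair them. Of 573 alternative values for the other named genes, 479 kept direction and call, and of 180 list counts 121 stayed within 1.5 times. The direction of Prdx2 and Prdx5 is not settled by these data, since it depended on the scaling.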
